A study of Mus musculus with 8 samples.

Results

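A set of 9 chemokine receptor genes of lymph node, tissue and type 2 homing was followed in LKB1-deficient and control mouse CD8+ T cells: Ccr2, Ccr4, Ccr7, Ccr8, Cxcr3, Cxcr4, Cxcr5, Cxcr6 and Cx3cr1. They were taken by exact symbol from tables of 24421 genes, and all 9 were present and had enough counts to be tested. In the LKB1-deficient cells Ccr7, the receptor that leads T cells into lymph nodes, fell 2.06-fold. Ccr2, Ccr4 and Ccr8, receptors of inflamed tissue and of type 2 sites, rose 3.1-, 2.77- and 2.93-fold. The call of Ccr8 was near the threshold and depended on the processing, and none of these rises passed without LKB1-deficient replicates 2 and 4. Cxcr3, Cxcr4, Cxcr5, Cxcr6 and Cx3cr1 did not pass the test.

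The LKB1-deficient group held 4 libraries of cells whose genotype is labelled LKB1-deficient, and the control group held 4 libraries of LKB1 wild type cells. In both groups naive cells had been stimulated on plates coated with antibodies against CD3 and CD28 for 48 hours, which mimics antigen and costimulation. The kinase LKB1, the product of Stk11, switches on AMPK and related kinases. The strain and age of the mice, how the deficiency was made, and whether replicates were separate animals, are not stated in the sources used, so the p-values cover the spread among these samples alone, which may be technical. RNA was read from its 3' end. Expression is given as CPM, the usual counts of a gene relative to library size (here after TMM scaling), from 4 libraries in each group. A fold change sets LKB1-deficient over control and is given with a standard error (SE) or a 95% interval, and p-values come from edgeR's quasi-likelihood test with Benjamini-Hochberg adjustment over 10396 tested genes. A gene passed, and is said to have risen or fallen, when its adjusted p was under 0.05.

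Chemokine receptors span the membrane as G protein-coupled receptors and steer cells up gradients of small secreted proteins, the chemokines, mainly through inhibitory G proteins. Naive T cells use CCR7 to enter and stay in lymph nodes, where CCL19 and CCL21 are displayed. After activation, T cells lower such receptors and gain others, such as CXCR3, CXCR6 or CX3CR1, that direct them to inflamed tissue. CCR4 and CCR8 are best known from type 2 helper and regulatory T cells, and CCR4 from skin homing.

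The libraries differed in depth. Gene counts came to 3454388 to 6356125 in the LKB1-deficient libraries and 7090252 to 12211930 in the control libraries, so that 1 count stood for 0.157 to 0.291 CPM in LKB1-deficient and 0.0757 to 0.13 CPM in control libraries. On the first principal component of all tested genes, LKB1-deficient replicates 2 and 4 lay apart, with scores of 51.7 and 54.4, while replicates 1 and 3 of that group scored 12.5 and 6.79 and control libraries -37.9 to -21.7. Stk11 itself had 64.4 to 107 CPM in LKB1-deficient and 67.8 to 101 CPM in control libraries. Since it is not stated how the deficiency was made, 3' tags do not check the genotype. All 8 listed markers of CD8 T cells were tested, and their summed level was 3043 to 4043 CPM in LKB1-deficient and 4463 to 4834 CPM in control libraries, and 3 of them (Cd3d, Cd3g and Cd8a) fell. Markers of CD4 T cells summed to 3.23 to 9 CPM in LKB1-deficient and 6.56 to 9.08 CPM in control libraries. Cd4 itself, which defines the other T cell lineage, averaged 0.253 ± 0.238 CPM in LKB1-deficient and 0.554 ± 0.417 CPM in control cells (SD, n = 4 each).

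Of the 9 receptor genes, 4 passed (44.4%), against 22.5% of all tested genes. By direction, 3 of 9 rose, against 12.4% of all tested genes, and 1 fell, against 10.1%. The groups did not overlap in the 4 genes that passed, and they overlapped in the other 5, while 26.1% of all tested genes had groups without overlap. The median log2 fold change of the 9 genes was 0.64, against 0.00 over all tested genes. These receptors, and the gene lists further below, were chosen with earlier results of these data known. Shares and medians set beside those of all tested genes therefore describe them and do not test them.

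**Figure D1:**
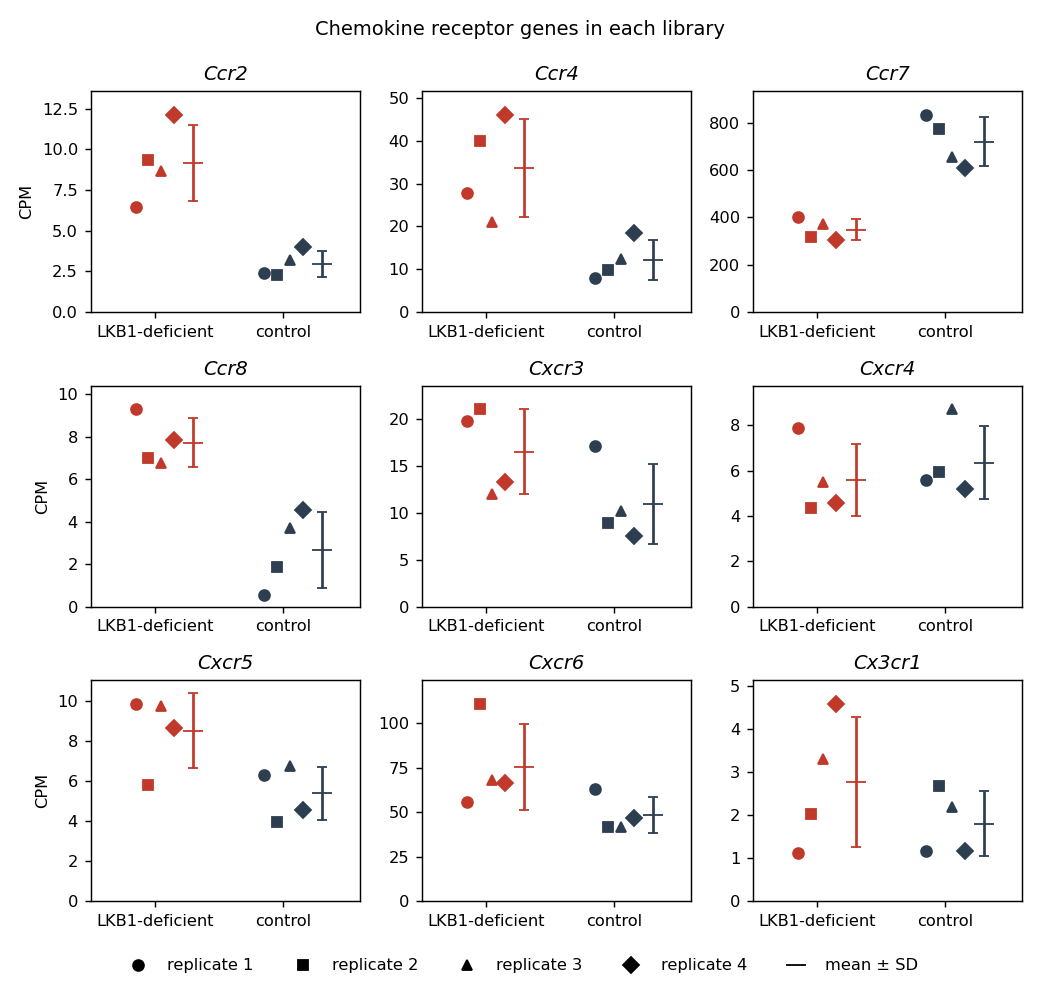
CPM of the 9 chemokine receptor genes (y axis, from 0, a separate scale for each gene) in each LKB1-deficient (left, red) and control (right, dark) library; symbols mark the replicate number, and bars show the mean ± SD of 4 libraries. For Ccr2, Ccr4 and Ccr8 every LKB1-deficient library lies above every control library, and for Ccr7 every one lies below.

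Of 3 receptors known from lymphoid tissue, Ccr7 fell and Cxcr5 and Cxcr4 did not pass. Ccr7 had 399.8, 319, 370.3 and 304 CPM in LKB1-deficient replicates 1 to 4, against 835, 775, 657 and 610.1 CPM in control replicates 1 to 4. The highest LKB1-deficient library lay below the lowest control library. Its log2 fold change of -1.05 ± 0.16 passed (SE, adjusted p = 0.00431), with a 95% interval of 1.61- to 2.64-fold lower. Ccr7 was the best counted of the 9 genes, with 1096 to 2353 counts in LKB1-deficient and 4697 to 9535 counts in control libraries. It still stood at 348 ± 44.5 CPM in LKB1-deficient cells, against 719 ± 104 CPM in control cells (SD, n = 4 each), so the transcript was still present. In bulk RNA, fewer cells that carry a transcript and less of it per cell cannot be told apart. Ccr7 lies on the minus strand of chromosome 11 (99144196 to 99155077 in GRCm38, or mm10) and is annotated as protein coding, with 3 exons in its longest transcript.

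Cxcr5 encodes the receptor for CXCL13, which leads B cells and follicular T cells into B cell follicles. It had 9.85, 5.83, 9.76 and 8.63 CPM in LKB1-deficient replicates 1 to 4, against 6.29, 3.98, 6.73 and 4.55 CPM in control replicates 1 to 4. LKB1-deficient replicate 2 lay within the control range, and the log2 fold change of 0.66 ± 0.24 did not pass (SE, adjusted p = 0.0719, unadjusted p = 0.0209). The 95% interval ran from 1.09- to 2.3-fold. Markers of B cells, which carry Cxcr5 and Ccr7, summed to 4.56 to 7.88 CPM in LKB1-deficient and 7.23 to 12.6 CPM in control libraries. Of the 5 listed, Cd79b was tested and fell, and Pax5 had no count in any library. The part of these levels in either receptor was not tested.

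Cxcr4 encodes the receptor for CXCL12, which holds cells in bone marrow and guides them in lymphoid tissue. Its CPM was 7.88, 4.37, 5.51 and 4.58 in LKB1-deficient replicates 1 to 4, and 5.57, 5.93, 8.7 and 5.2 in control replicates 1 to 4. The groups overlapped throughout, and a log2 fold change of -0.19 ± 0.26 did not pass (SE, adjusted p = 0.601). The interval reached from 1.7-fold lower to 1.3-fold higher. Its sign turned (0.04) without LKB1-deficient replicates 2 and 4.

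Both receptors known from type 2 sites and skin rose. Ccr4, the receptor for CCL17 and CCL22, had 27.9, 39.9, 20.9 and 46.1 CPM in LKB1-deficient replicates 1 to 4, against 7.91, 9.91, 12.4 and 18.4 CPM in control replicates 1 to 4. All LKB1-deficient libraries were above all controls, though LKB1-deficient replicate 3 exceeded control replicate 4 by little. The counts behind these CPM were 99, 137, 133 and 171 in LKB1-deficient and 88, 122, 164 and 142 in the deeper control libraries. With a log2 fold change of 1.47 ± 0.30 Ccr4 passed (SE, adjusted p = 0.0115), with an interval of 1.74- to 4.41-fold. Without LKB1-deficient replicates 2 and 4 it was 1.01 and did not pass (adjusted p = 0.116). Ccr4 is a protein-coding gene on the minus strand of chromosome 9 (114490316 to 114504916).

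Ccr8, the receptor for CCL1 (and in mouse also CCL8), was a low gene. It had 33, 24, 43 and 29 counts in LKB1-deficient replicates 1 to 4, against 6, 23, 49 and 35 counts in the deeper control replicates 1 to 4. Scaled to library size this was 9.28, 6.99, 6.77 and 7.82 CPM in the LKB1-deficient libraries, against 0.539, 1.87, 3.71 and 4.55 CPM in the control libraries. The LKB1-deficient libraries lay close together above all controls, which spread widely. Its log2 fold change of 1.55 ± 0.47 passed (SE, adjusted p = 0.0411), with an interval of 1.41- to 6.06-fold. This call was near the threshold, and it ended when any single LKB1-deficient library, control replicate 2 or control replicate 3 was left out, and with upper quartile or total count scaling, at an adjusted p of at most 0.0982. It also ended without the count filter (adjusted p = 0.0514). Among the libraries whose identifiers start with EU, the log2 fold change was 1.11 and did not pass (adjusted p = 0.0556). Without LKB1-deficient replicates 2 and 4 together the adjusted p was 0.176. Ccr8 lies on the plus strand of chromosome 9 (120092114 to 120094906).

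Of 4 receptors of inflamed tissue, Ccr2 rose and the others did not pass. Ccr2, the receptor for CCL2 that recruits monocytes and effector T cells, had 6.47, 9.32, 8.66 and 12.1 CPM in LKB1-deficient replicates 1 to 4, against 2.43, 2.27, 3.18 and 4.03 CPM in control replicates 1 to 4. No LKB1-deficient library fell to the control range, and the counts behind these values were 23 to 55 in LKB1-deficient and 27 to 42 in control libraries. At a log2 fold change of 1.63 ± 0.26 Ccr2 passed (SE, adjusted p = 0.0052), with an interval of 2.07- to 4.63-fold. Ccr2 was also the 1 gene of the 9 that passed a test against a 1.5-fold change. Without LKB1-deficient replicates 2 and 4 it missed the threshold at a log2 fold change of 1.38 (adjusted p = 0.0543). Ccr2 lies on the plus strand of chromosome 9 (124101950 to 124113557).

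Markers of other cells that carry Ccr2 were read beside it. Of 9 listed myeloid markers 4 were tested and none passed, and their summed level was 117 to 149 CPM in LKB1-deficient and 122 to 141 CPM in control libraries, most of it Cst3 (119 ± 16.6 CPM in LKB1-deficient and 121 ± 5.61 CPM in control cells, SD, n = 4 each). Of the 4 tested, 3 had a fold change above 1. Tyrobp, an adaptor of myeloid and NK cell receptors, averaged 2.29 ± 0.895 CPM in LKB1-deficient and 1.07 ± 0.352 CPM in control cells (SD, n = 4 each; adjusted p = 0.0603), and Fcer1g, a subunit of Fc receptors, averaged 5.14 ± 2.8 CPM in LKB1-deficient and 3.39 ± 1.55 CPM in control cells (SD, n = 4 each; adjusted p = 0.341). Csf1r and Adgre1, which define macrophages, had no count in any LKB1-deficient library, where 3 counts would be 0.472 to 0.874 CPM. Mast cell and basophil markers summed to 7.6, 25.9, 9.29 and 22.4 CPM in LKB1-deficient replicates 1 to 4, against 5.66 to 7.42 CPM in control libraries, and 1 of 4 tested, Gata2, rose. Replicates 2 and 4, with the highest sums, also had the highest Ccr2 and Ccr4. The part of these markers in the receptor values was not tested.

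Cxcr6, the receptor for the membrane-bound chemokine CXCL16 that marks tissue-seeking T cells, had 55.7, 111, 68.3 and 66.6 CPM in LKB1-deficient replicates 1 to 4, against 63.2, 41.8, 41.5 and 47 CPM in control replicates 1 to 4. LKB1-deficient replicate 1 lay below control replicate 1, and the other LKB1-deficient libraries were above all controls. The log2 fold change of 0.64 ± 0.22 did not pass (SE, adjusted p = 0.0623). It passed without LKB1-deficient replicate 1 (adjusted p = 0.0391) or without control replicate 1 (adjusted p = 0.0444). These were the libraries whose identifiers start with ET; among the others alone, which start with EU, the log2 fold change was 0.91 (adjusted p = 0.0301). With all 8 libraries Cxcr6 passed in DESeq2 (adjusted p = 0.0363) and with the trend on transcript length removed (adjusted p = 0.0456), and in each of these settings 5 of the 9 receptor genes passed.

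Cxcr3, the receptor for CXCL9, CXCL10 and CXCL11 on type 1 effector cells, had 19.7, 21, 12 and 13.2 CPM in LKB1-deficient replicates 1 to 4, against 17.1, 8.86, 10.1 and 7.53 CPM in control replicates 1 to 4. Control replicate 1 lay inside the LKB1-deficient range. The log2 fold change of 0.57 ± 0.28 did not pass (SE, adjusted p = 0.158), and it was 0.87 without control replicate 1 (adjusted p = 0.0407). Cx3cr1, the receptor for CX3CL1 on terminally differentiated effector cells, rested on 4, 7, 21 and 17 counts in LKB1-deficient replicates 1 to 4 and on 13, 33, 29 and 9 counts in control replicates 1 to 4. At this depth its log2 fold change of 0.61 ± 0.44 (SE, adjusted p = 0.318) allowed anything from 1.28-fold lower to 2.98-fold higher. Its annotated span also overlaps 3 other genes on the same strand (Gorasp1, Csrnp1 and Xirp1). Whether exons overlap was not examined, so the assignment of its few counts may be uncertain. NK cells, which carry Cx3cr1, were read from 4 markers that summed to 0.787 to 2.62 CPM in LKB1-deficient and 0.0812 to 0.52 CPM in control libraries, with Klra8 and Klra4 at 0 in all. None of the 4 could be tested, and their part in the Cx3cr1 values was not tested.

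**Figure D2:**
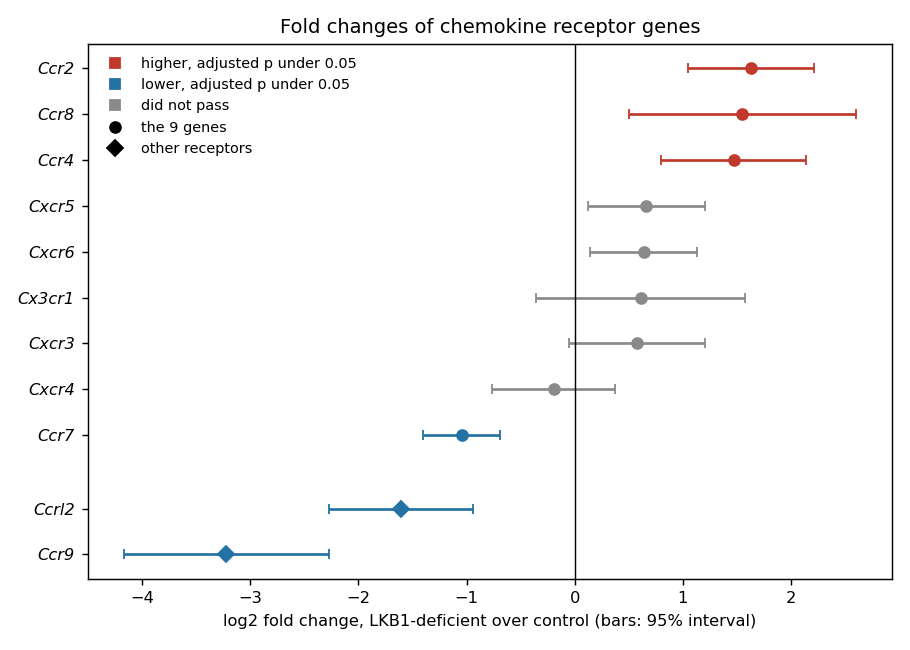
Log2 fold change, LKB1-deficient over control (x axis), with its 95% interval, for the 9 receptor genes (circles) and for Ccr9 and Ccrl2 (diamonds); red passed as higher, blue as lower and grey did not pass. Ccr2, Ccr8 and Ccr4 lie near 1.5, Ccr7 at -1.05, and Ccr9 lies farthest to the left at -3.22.

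The promoters of the 3 genes that rose are shown because all 3 are on chromosome 9 and rose. RefSeq promoters of GRCm38.p6, 250 bases before to 50 bases after a start site, were found for 7 of the 9 genes. Each was searched on both strands for the letters AGATAA of GATA factors, TGTGGT of RUNX factors, GTAAACA of FOXO factors and CACCC of KLF factors, and matches are in capitals. The sequences run 5' to 3' along the gene's strand, and are chr9:124101933-124102232 (plus strand) for Ccr2, chr9:114496495-114496794 (minus strand) for Ccr4 and chr9:120091883-120092182 (plus strand) for Ccr8. The window for Ccr4 lies within the annotated span of the gene, whose 5' end is at 114504916, so its letters do not describe that end.
Ccr2: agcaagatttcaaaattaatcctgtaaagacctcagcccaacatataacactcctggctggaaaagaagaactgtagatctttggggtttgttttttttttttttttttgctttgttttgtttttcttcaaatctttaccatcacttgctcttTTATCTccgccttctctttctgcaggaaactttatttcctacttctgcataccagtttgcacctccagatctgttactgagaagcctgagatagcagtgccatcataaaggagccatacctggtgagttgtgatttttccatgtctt
Ccr4: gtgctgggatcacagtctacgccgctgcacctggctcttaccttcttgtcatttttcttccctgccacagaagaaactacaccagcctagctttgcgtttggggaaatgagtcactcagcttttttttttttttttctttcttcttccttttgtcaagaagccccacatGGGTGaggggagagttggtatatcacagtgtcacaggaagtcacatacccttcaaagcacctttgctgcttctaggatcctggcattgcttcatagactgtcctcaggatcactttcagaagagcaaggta
Ccr8: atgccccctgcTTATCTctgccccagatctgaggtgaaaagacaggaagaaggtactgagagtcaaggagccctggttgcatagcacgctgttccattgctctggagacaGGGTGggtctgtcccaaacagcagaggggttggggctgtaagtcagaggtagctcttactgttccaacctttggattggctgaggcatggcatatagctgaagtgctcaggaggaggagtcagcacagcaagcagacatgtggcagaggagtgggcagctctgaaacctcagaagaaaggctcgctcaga
The promoters of Ccr2 and Ccr8 each held 1 match to the GATA letters, read as TTATCT, beginning 97 and 239 bases before the start site. Of 32851 promoters of this length, 11.2% held those letters. Ccr4 and Ccr8 each held 1 match to the KLF letters, read as GGGTG and beginning 81 and 140 bases before the start site, which 57.5% of promoters held. None of the 3 held the RUNX letters (16.8% of promoters) or the FOXO letters (3.65%) in this window. Among the other members, Cxcr3, Cxcr6 and Cx3cr1 held the RUNX letters. No matches overlapped within these 3 promoters. A match of this kind is a description of letters and not a binding site, and a missing match says only that the letters are not in this window.

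Changes among the receptors were also read as ratios within a library, which need no scaling between libraries. Counts of Ccr7 exceeded those of Ccr8 by 5.48 ± 0.21 on the log2 scale in LKB1-deficient libraries and by 8.41 ± 1.54 in control libraries (SD, n = 4 each). Relative to Ccr7, Ccr2 was higher by 2.66, Ccr4 by 2.52, Cxcr5 by 1.72, Cxcr3 by 1.67, Cxcr6 by 1.66 and Cxcr4 by 0.87 on the log2 scale in LKB1-deficient than in control libraries. The groups did not overlap in the ratio of Ccr7 to 7 of the other 8 members, the exception being Cx3cr1. All of these ratios share Ccr7, which fell itself, so they are not separate results about the other receptors. Cxcr4, whose own CPM overlapped between the groups, was among the 7. How many of all tested genes have such a ratio to Ccr7 was not counted. Each of these 7 had p = 0.0286 in a two-sided exact permutation test, the smallest that 4 against 4 libraries allow, and over all 36 pairs compared the adjusted p was 0.103, so none passed. The same held for 3 pairs without Ccr7, in which Cxcr4 was lower relative to Ccr2, Ccr8 and Cxcr5.

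**Figure D3:**
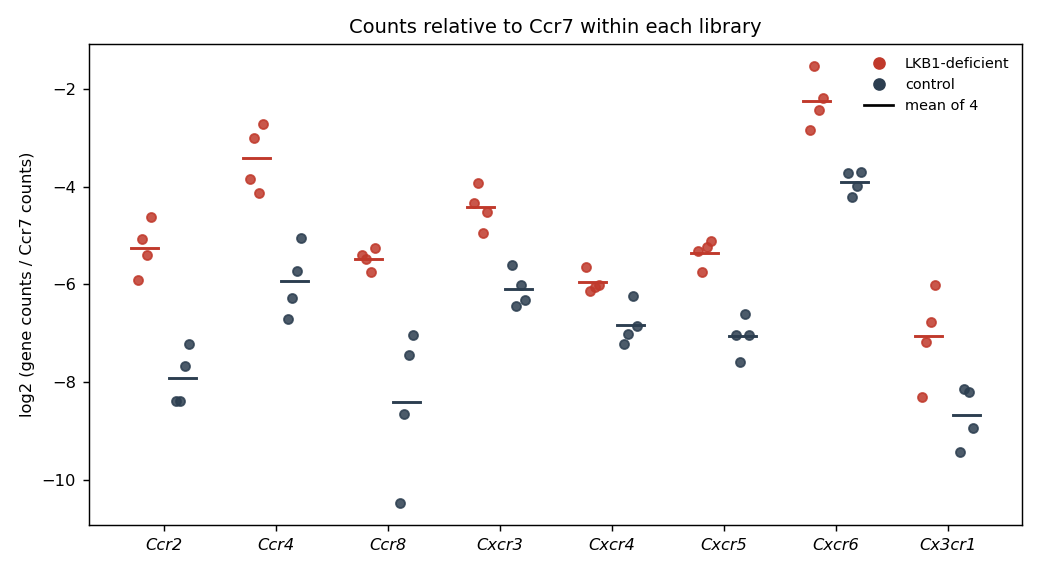
Log2 ratio of the counts of each receptor gene to those of Ccr7 (y axis) in each LKB1-deficient (red, left) and control (dark, right) library, with the mean of 4 as a line. All 8 means are higher in LKB1-deficient libraries, and the libraries of the groups overlap for Cx3cr1 alone. Because Ccr7 itself fell, a gene without a change of its own also comes out higher here.

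Among LKB1-deficient libraries Ccr4 was highest in replicates 4 and 2, Cxcr6 in replicate 2, Ccr8 in replicate 1 and Cxcr5 in replicates 1 and 3. Among control libraries Ccr4 and Ccr8 shared their order, with replicate 4 highest and replicate 1 lowest, and Ccr7 had the opposite order. Ccr2 was also highest in control replicate 4, and lowest in control replicate 2. Genes whose log2 CPM followed each changed receptor most closely over the 8 libraries were sought among 7701 genes. They were H2afv, Id3 and Spry1 for Ccr7 (Pearson's r = 0.984, 0.984 and 0.983), and Gemin4, Plekha3 and Ccdc6 for Ccr2 (r = 0.993, 0.982 and 0.978). For Ccr4 they were Plk3, Gadd45b and Klhl21 (r = 0.984, 0.98 and 0.979), and for Ccr8 they were Pafah1b2, Ier3 and Lif (r = 0.993, 0.989 and 0.988). The 8 libraries share the difference between the groups and in depth, so these values describe likeness only.

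Of the 9 genes 6 lie on chromosome 9, where 15 of the 24 listed chemokine receptor genes are found. Cx3cr1 and Ccr8 lie 22.2 kb apart, and Ccr9 and Cxcr6 lie 22.1 kb apart. Ccr8 rose and Cx3cr1 did not pass, and Ccr9 fell while Cxcr6 did not pass; the difference between neighbours was not tested. Shared sequence was checked in the last 1000 bases of each member's transcripts. No stretch of 36 bases was shared with another gene's transcripts for 7 of the 9 members, Ccr2 included, while 0.639% of such stretches in Ccr4 and 3.11% in Cx3cr1 were.

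Other chemokine receptors were read from a list of 15 genes. Of these, 3 were tested and all passed (100%, against 22.5% of all tested genes), with 1 higher and 2 lower. The 2 that fell are described here. The other 12 had too few counts, with at most 12 in any library. Ccr9, which brings T cells to the small intestine through CCL25, had 0.844, 2.04, 2.36 and 1.08 CPM in LKB1-deficient replicates 1 to 4, against 25.9, 14.7, 8.63 and 13.2 CPM in control replicates 1 to 4 (log2 fold change -3.22 ± 0.43, SE, adjusted p = 0.00341). This call held under all 21 alternatives. The annotated span of Ccr9 overlaps Gm17200 and Gm17020 on the same strand, and whether exons overlap was not examined. Ccrl2, which binds the attractant chemerin without signalling itself, averaged 4.23 ± 2.18 CPM in LKB1-deficient and 13.5 ± 2.16 CPM in control cells (SD, n = 4 each) and fell (adjusted p = 0.0085). Without LKB1-deficient replicates 2 and 4 Ccrl2 did not pass (adjusted p = 0.0544).

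Of 16 chemokines that bind the 9 receptors, 3 were tested and 1 passed (33.3%, against 22.5% of all tested genes). Cxcl10, a ligand of CXCR3, fell 2.05-fold, with 9.28, 18.6, 12.7 and 21.8 CPM in LKB1-deficient replicates 1 to 4, against 34, 40.2, 25.4 and 27.9 CPM in control replicates 1 to 4 (adjusted p = 0.0193). It did not pass among EU libraries alone (adjusted p = 0.0541). The next ligands did not pass or were not tested, and are named after their values were seen. Cxcl9, another ligand of CXCR3, averaged 2.55 ± 1.63 CPM in LKB1-deficient and 1.26 ± 0.379 CPM in control cells (SD, n = 4 each; log2 fold change 0.98, adjusted p = 0.127). Ccl1, the ligand of CCR8, had 34.5 to 112 CPM in LKB1-deficient and 43.1 to 49.3 CPM in control libraries (adjusted p = 0.105). Ccl17 and Ccl22, the ligands of CCR4, were under the count filter, with 3, 11, 16 and 5 and 10, 6, 22 and 2 counts in LKB1-deficient replicates 1 to 4, against 2, 1, 7 and 7 and 2, 10, 14 and 5 counts in control replicates 1 to 4. Of the 13 untested ligands 6 had no count in any library, among them the CCR7 ligands Ccl19 and Ccl21a.

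Genes that carry or damp the receptors' signal moved in both directions. Of 37 tested, 6 rose and 6 fell (32.4%, against 22.5% of all tested genes), with a median log2 fold change of 0.04. Pik3cg, the PI3-kinase catalytic subunit that G protein-coupled receptors activate, averaged 47.7 ± 11.2 CPM in LKB1-deficient and 21.4 ± 5.28 CPM in control cells (SD, n = 4 each; adjusted p = 0.00918). Rgs10 and Rgs16, which shorten G protein signals, fell 2.88-fold and 2.2-fold (adjusted p = 0.00581 and 0.0133). Gng2, a G protein gamma subunit, fell 1.48-fold (adjusted p = 0.0141). Gna13, a G protein alpha subunit, and Elmo1, a partner of DOCK2 in activating Rac, rose 1.42-fold and 1.46-fold (adjusted p = 0.0214 and 0.0309), and both calls depended on the processing. Neither passed with upper quartile or total count scaling or with the length trend removed. Gnai2, the main inhibitory G protein alpha subunit in T cells, was named for this role and stood at 677 ± 43.7 CPM in LKB1-deficient and 678 ± 131 CPM in control cells (SD, n = 4 each; adjusted p = 0.99). With upper quartile or total count scaling 2 genes of the list rose and 6 fell, and the count depended on single libraries, ranging from 4 to 10 when 1 was left out. Elmo1 did not pass without LKB1-deficient replicate 1 or 3 or any single control replicate, and Gna13 did not pass without control replicate 3 (adjusted p at most 0.0728).

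Of 7 tested receptors for other attractants, 1 passed (14.3%, against 22.5% of all tested genes). S1pr4, a receptor for sphingosine 1-phosphate, averaged 22.4 ± 7.24 CPM in LKB1-deficient and 40 ± 3.88 CPM in control cells (SD, n = 4 each; adjusted p = 0.0221), and its call ended without LKB1-deficient replicate 2 or 4 or control replicate 3 (adjusted p at most 0.0618). Of 14 tested adhesion genes of homing, 4 fell and 1 rose (35.7%, against 22.5% of all tested genes), with a median log2 fold change of -0.16. Itgae, the alpha E integrin of cells held in epithelium, had 1.13, 0.583, 2.2 and 1.62 CPM in LKB1-deficient replicates 1 to 4, against 6.29, 6.34, 4.92 and 4.94 CPM in control replicates 1 to 4 (adjusted p = 0.00582). Itgb7, its beta chain partner, and Itga4, the alpha 4 chain that pairs with beta 7 for gut homing, fell 2.21-fold and 2.02-fold (adjusted p = 0.0127 and 0.0259). Selplg, encoding the selectin ligand PSGL-1, fell 1.76-fold (adjusted p = 0.0263), and Gcnt1, a glycosyltransferase that helps make selectin ligands, rose 1.96-fold on 9 to 27 counts in any library (adjusted p = 0.0384). The call of Selplg ended without LKB1-deficient replicate 2 or 4 or control replicate 3 or 4, that of Itga4 without LKB1-deficient replicate 4 or control replicate 1, and that of Gcnt1 without LKB1-deficient replicate 1, 2 or 4 or control replicate 1, 3 or 4. Without LKB1-deficient replicates 2 and 4 together no adhesion gene passed.

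Of 22 tested transcription factors known to act on homing genes, 10 rose and 2 fell (54.5%, against 22.5% of all tested genes), with a median log2 fold change of 0.48. Gata3, which drives the type 2 programme of helper T cells, had 292, 447, 289 and 443 CPM in LKB1-deficient replicates 1 to 4, against 49, 63.9, 95.1 and 111 CPM in control replicates 1 to 4 (log2 fold change 2.21 ± 0.28, SE, adjusted p = 0.00331). Runx3, the factor of cytotoxic and tissue-resident T cells, and Prdm1, encoding Blimp-1, rose 2.35-fold and 6.55-fold (adjusted p = 0.00331 and 0.00341). Id3 fell 6.61-fold and Bcl6, the factor of follicular helper T cells that also favours Cxcr5, fell 2.95-fold (adjusted p = 0.00341 and 0.0188), though Bcl6 did not pass without LKB1-deficient replicate 2 (adjusted p = 0.0536). Their part in the receptor values was not tested. The factors best known for each lymph node or type 1 receptor gene are named for that role. Klf2 averaged 15.2 ± 8.04 CPM in LKB1-deficient and 21.1 ± 9.46 CPM in control cells, and Foxo1 averaged 86.7 ± 16.7 CPM in LKB1-deficient and 73.8 ± 6.48 CPM in control cells (SD, n = 4 each; adjusted p = 0.344 and 0.278). Tbx21, a regulator of Cxcr3, averaged 83.7 ± 1.06 CPM in LKB1-deficient and 68.4 ± 14.2 CPM in control cells (SD, n = 4 each; adjusted p = 0.183).

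**Figure D4:**
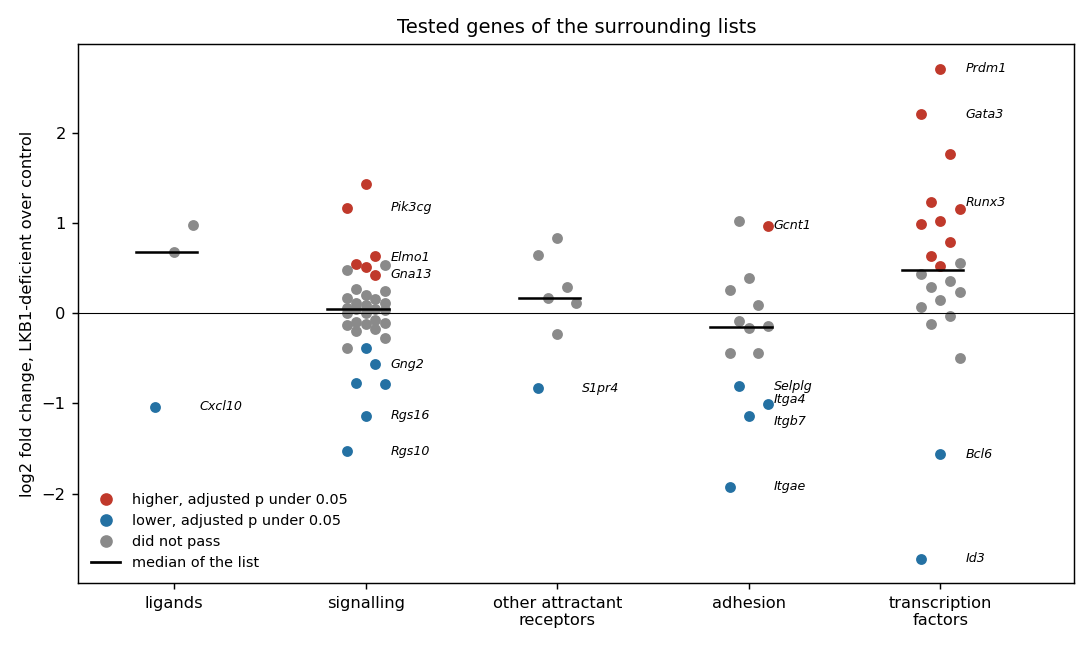
Log2 fold change, LKB1-deficient over control (y axis), of every tested gene of 5 lists around the receptors; red passed as higher, blue as lower, grey did not pass, and the line is the list's median. Prdm1 (2.71) and Gata3 (2.21) lie highest among the transcription factors, and Id3 (-2.72) lies lowest.

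The calls were set beside those under other processing. Ccr7 passed under 21 of 22 alternatives, the exception being a test against a 1.5-fold change (adjusted p = 0.0695), and its log2 fold change ran from -1.19 to -0.90. Ccr2 passed under 20 of 21 and ran from 1.19 to 1.79, and Ccr4 passed under 19 of 22 and ran from 1.01 to 1.72. Ccr8 passed under 8 of 21 and ran from 1.11 to 1.91. None of these 4 changed direction under any alternative run.

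**Figure D5:**
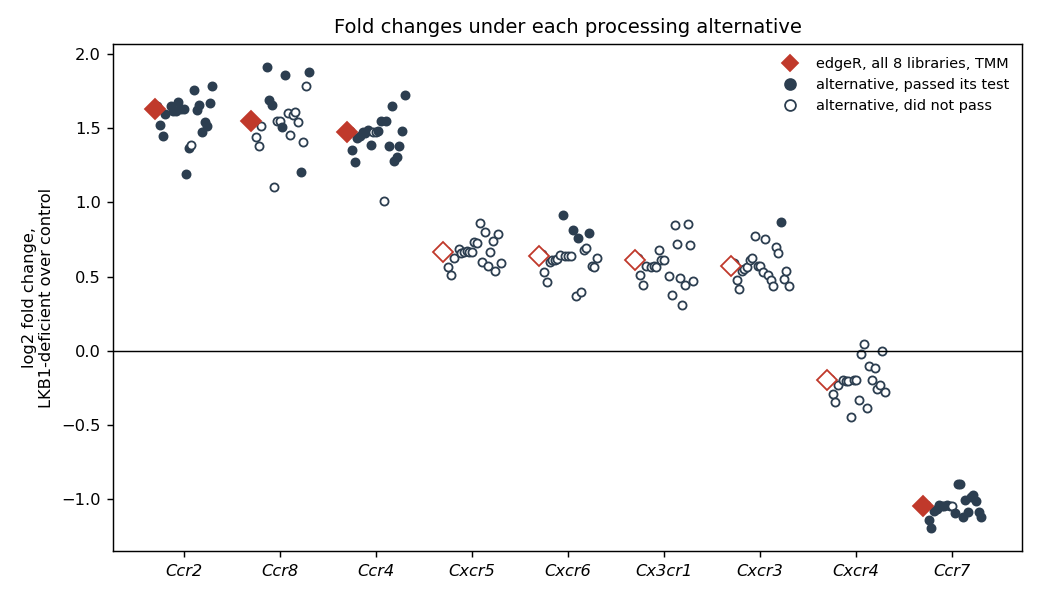
Log2 fold change, LKB1-deficient over control (y axis), of the 9 receptor genes with all 8 libraries (diamond) and under each processing alternative (circles, left to right in a fixed order); filled symbols passed their test and open symbols did not. Ccr8 has the most open circles of the 4 genes that passed, and Cxcr4 is the 1 gene whose values cross 0.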

How the data were processed

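The 8 libraries were analysed as 4 LKB1-deficient and 4 control replicates, per the labels' titles. Per gene symbol, the authors deposited raw counts. Per the labels' protocols, RNA was primed with barcoded oligo-dT and sequenced as strand-keeping 3' libraries, pooled before PCR. Without molecular identifiers, copies made by PCR count as separate reads. Per the submitters' processing notes, reads were aligned with STAR to mm10; which program and annotation produced the counts is not given in the sources used here. Library sizes and tests left out 5 lines that name no gene; counts outside genes came to 14.9% to 17.5% in LKB1-deficient and 12.1% to 14.3% in control libraries. Within a group, no library repeated the counts of another. Pairs differed beyond sampling noise, with a chi-square of at least 11.6 for each degree of freedom. Because copies made by PCR count as reads, this cannot tell whether libraries came from the same RNA.

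Tests ran in edgeR 4.0.16 (R 4.3.3) after filterByExpr (at least 10 counts, 15 in total) and TMM scaling. They used the robust quasi-likelihood fit with no covariates and adjustment over all tested genes, with a threshold of 0.05. SE was taken from the fold change on the log2 scale and the F statistic. Positions and lengths came from GENCODE for GRCm38. Receptors and gene lists were chosen with earlier results of these data known. Named were all 9 receptors; in each other list all passing genes up to 6, otherwise the 3 with the smallest p in each direction; and for each changed receptor the 3 most alike genes with a mean of at least 10 CPM. Ratios used counts plus 0.5. Alternatives were DESeq2 1.42.0, limma-voom (limma 3.58.1), other scalings and filters, a replicate block, an identifier prefix term, EU libraries alone, stricter tests, thinning to 3454388 counts, left-out libraries and, chosen after the data were seen, removal of the trend on transcript length (lowess span 0.3). The test was checked on simulated counts. Some genes of the lists are counted but not reported here by name.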

Additional observations from a re-analysis of the deposited data

Results flagged for a closer look

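Across 30 genes in 2 groups, 2 libraries stood far from the other 3 of their group, fewer than the 1 in 20 groups that chance gives. Most of these genes were named because they passed, and all were read from the same libraries, so setting them beside this rate is not a test. Ccrl2 had 16.7 CPM in control replicate 2, against 12.2 to 12.8 CPM in the other controls. Bcl6 had 7.46 CPM in control replicate 1, against 3.64 to 3.93 CPM in the other controls. None of the 9 receptor genes had such a library in either group.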

How the results depend on the processing

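Of 9 receptor genes, 4 passed with all libraries, 3 to 6 when 1 library was left out, 2 with a mean CPM of at least 10 (which keeps fewer genes) or an adjusted p of 0.01, 1 in a test against a 1.5-fold change, and 1 without LKB1-deficient replicates 2 and 4, where Ccr7 remained. Over all genes the 2337 calls became 437, 177 and 260 under the last 3 of these settings and 1011 to 2825 with 1 library left out. They were 1113 and 1017 without LKB1-deficient replicate 2 or 4 and 1011 and 1303 without control replicate 3 or 4. Without both libraries Cxcr4 (-0.19 with all) came to 0.043 (adjusted p = 0.948), the only reversal among 647 values of 30 named genes. Over all genes the median log2 fold change moved to -0.16 with total count scaling and -0.10 with upper quartile scaling, where 829 and 1023 genes were higher and 1576 and 1446 lower, against 1286 and 1051 with TMM.

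For the other lists, a mean CPM of at least 10 left 1 of 3 other receptors and 3 of 5 adhesion genes. An adjusted p of 0.01 left 0 ligands (of 1), 2 signalling genes (of 12), 0 attractant receptors (of 1), 1 adhesion gene and 5 transcription factors (of 12). The 1.5-fold test left 1, 0, 1, 0, 1 and 5 genes of the other receptors, ligands, signalling, attractant receptor, adhesion and transcription factor lists. Without both libraries 1 other receptor, 1 signalling gene, 0 attractant receptors, 0 adhesion genes and 6 transcription factors passed. EU libraries alone gave 0 ligands, 6 signalling genes, 2 attractant receptors and 3 adhesion genes. No filter gave 2 ligands. With 1 library left out the counts ran from 1 to 2 (ligands), 4 to 10 (signalling), 0 to 2 (attractant receptors), 2 to 7 (adhesion) and 10 to 13 (transcription factors). All 3 tested other receptors passed in each of these fits. Beyond fewer genes, fewer samples or a stricter test, the cause was not tested.

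The replicate numbers gave no consistent sign of pairing: deviations of same-numbered libraries correlated at -0.25, 0.29, 0.30 and -0.09. Libraries within a group were not equally alike. The chi-square for each degree of freedom was 11.6 between LKB1-deficient replicates 2 and 4 and 14.3 between 1 and 3, against 32.6 to 38.4 for the other pairs. It was 11.9 between control replicates 3 and 4, against 25.2 to 49 for the others. Whether libraries of a group are independent was not tested. A replicate block gave 1902 calls, 4 among the 9 receptors, 7 signalling genes and 3 adhesion genes. Depth limits low genes such as Gcnt1, Cx3cr1 and Ccr8, with at most 27, 33 and 49 counts in any library.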
